A study of Mus musculus with 9 samples.

Results

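The Fc gamma receptors are the cell-surface receptors that let microglia, macrophages and neutrophils sense antibody of the IgG class. The members described here are 10 genes of that system, given as a list of gene symbols. The list itself uses no measured value, but it was chosen with earlier results of these data known. They are the receptors Fcgr1, Fcgr2b, Fcgr3 and Fcgr4, the signaling chain Fcer1g, the kinases Lyn, Syk and Btk, the adaptor Blnk and the exchange factor Vav1. Each symbol matched 1 gene of the 52550 in the count table, and all 10 were among the 18699 genes with enough counts to be tested.

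When IgG on a target clusters an activating receptor, a Src family kinase such as Lyn phosphorylates paired tyrosines, the ITAM, in the chain encoded by Fcer1g. Syk docks on these tyrosines, and the signal passes through Btk, Blnk and Vav1 to calcium, to the actin skeleton and to engulfment of the target. Fcgr2b works against this route through a single inhibitory tyrosine motif, the ITIM, and the same kinases and adaptors carry the signal of the antigen receptor in B cells. In the nervous system these genes are known mainly from microglia and from macrophages that enter after damage.

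RNA was sequenced from the spinal cord of 9 adult female C57BL/6N mice, 3 in each group, taken as a segment around the injury site on day 7. Sham mice underwent laminectomy alone. SCI mice received a contusion of the thoracic cord and the vehicle DMSO, and SCI+FIPI mice received the same contusion and FIPI, an inhibitor of phospholipase D, once a day into the peritoneum. The labels give the treatment of both other groups as control. Each library came from 1 mouse of its own, the labels give no genetic change in any group, and no cells were sorted. Library totals lay between 20806000 and 24582377 counts. The 14 pan-myeloid markers summed to between 655 and 959 CPM in the Sham mice, 5979 and 6999 CPM in the SCI mice and 4584 and 5404 CPM in the SCI+FIPI mice, so that the cells usually credited with these receptors were represented in every library, while 14 of 14 neuron markers fell after injury and 7 of them were higher with FIPI than without. Levels are given as CPM, the count of a gene relative to the TMM-scaled total of its mouse. The term called is used for a gene whose log2 fold change reached 0.5 in either direction and whose p from the quasi-likelihood test of edgeR was under 0.05 after adjustment over all genes.

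The sequences that set the signaling parts of this system apart are shown first. In the coding sequence of the principal Fcer1g transcript (258 bases, GENCODE M21 on GRCm38), a search for a tyrosine codon followed 3 codons on by leucine or isoleucine, then 6 to 8 codons, then the same arrangement again, matched once, at coding bases 193 to 237. None of the other 9 members held a match. Capitals mark the tyrosine codons of the pair.
Fcer1g, coding bases 193 to 237: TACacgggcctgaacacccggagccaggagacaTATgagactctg
The inhibitory motif of Fcgr2b is shown for contrast, at coding bases 949 to 966 of 1020, again with its tyrosine codon in capitals. The pattern searched was isoleucine, leucine, valine or serine 2 codons before a tyrosine, and isoleucine, leucine or valine 3 codons after it. It is short and also matched in the letters of Fcgr1, Fcgr4, Fcer1g, Lyn and Vav1, so that a match is a description of the letters only.
Fcgr2b, coding bases 949 to 966: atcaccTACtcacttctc

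Fcgr2b and Fcgr3 are close copies over part of their length, which bears on how reads could be assigned between an inhibitory and an activating receptor. Their coding sequences shared an unbroken run of 129 bases, from base 278 to 406 in Fcgr2b and from base 263 to 391 in Fcgr3.
Fcgr2b and Fcgr3, shared run: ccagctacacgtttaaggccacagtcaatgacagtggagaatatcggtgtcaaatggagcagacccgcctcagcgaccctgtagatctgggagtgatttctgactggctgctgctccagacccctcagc
Of the 50-base stretches in its longest transcript, 12.8% in Fcgr3 and 12.5% in Fcgr2b also occurred in another gene. For Fcgr3 the partner with most of them was Fcgr2b, and for Fcgr2b it was Cplx2 (6.9%). The counts of both receptors are therefore uncertain, by an amount that these shares do not give. The longest run that Fcgr1 or Fcgr4 shared with another of the receptors was 14 bases. In Lyn, 21.8% of the stretches were shared, most of them with Gm11787, which had at most 1 count in any mouse. Gm26857 overlaps Lyn on the opposite strand, with at most 13 counts in any mouse, and Gm38204 overlaps Fcgr2b, with at most 1 count.

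Among the receptors, all 4 rose after contusion, Fcgr4 by the largest fold. Fcgr1, the high-affinity IgG receptor, lies at chr3:96282909-96293969 on the reverse strand of GRCm38. It had 11.02, 10.5 and 6.60 CPM in the Sham mice, 48.5, 59.8 and 51.7 CPM in the SCI mice, and 45.2, 34.3 and 37.0 CPM in the SCI+FIPI mice. The 3 groups did not overlap, and the log2 fold change after injury was 2.51 (standard error 0.186, adjusted p = 1.58e-06), with FIPI between the other groups.

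Fcgr3, a low-affinity activating receptor (chr1:171051174-171064935, reverse strand), was the most abundant receptor per length in each group. It had 24.2, 25.0 and 18.2 CPM in the Sham mice, 137, 136 and 149 CPM in the SCI mice, and 116, 96.9 and 112 CPM in the SCI+FIPI mice. Every SCI mouse stood above every SCI+FIPI mouse, and every SCI+FIPI mouse above every Sham mouse. The log2 fold change after injury was 2.65 (standard error 0.111, adjusted p = 1.44e-09).

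Fcgr4 (chr1:171018920-171029761, forward strand), an activating receptor for the IgG2 subclasses, was the rarest receptor in uninjured cord. It had 1.44, 2.38 and 1.00 CPM in the Sham mice, from 24 to 55 counts a mouse. The values were 23.7, 28.2 and 22.3 CPM in the SCI mice and 24.5, 16.7 and 16.9 CPM in the SCI+FIPI mice. The injured groups overlapped, since SCI+FIPI mouse 1 lay above SCI mice 1 and 3. Mean Fcgr4 in the SCI group was 15.4 times that in the Sham group (log2 fold change 3.94, standard error 0.266, adjusted p = 4.80e-07).

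Fcgr2b, the inhibitory receptor (chr1:170958617-170976547, reverse strand), rose along with the activating receptors. It had 17.3, 16.8 and 11.6 CPM in the Sham mice, 98.0, 116 and 118 CPM in the SCI mice, and 86.2, 67.0 and 78.8 CPM in the SCI+FIPI mice. The groups were separate, and the log2 fold change after injury was 2.87 (standard error 0.159, adjusted p = 2.12e-07).

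Fcer1g, the chain that carries the ITAM shown above (chr1:171229572-171234365, reverse strand), had the highest level per length of the 10 in each group. It had 17.0, 20.6 and 13.04 CPM in the Sham mice, 183, 182 and 216 CPM in the SCI mice, and 162, 148 and 153 CPM in the SCI+FIPI mice. No 2 groups overlapped. The log2 fold change after injury was 3.52 (standard error 0.143, adjusted p = 9.59e-09), a mean 11.5 times that of the Sham group.

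The kinases downstream rose as a group. Lyn (chr4:3678115-3813122, forward strand), which phosphorylates ITAMs as well as ITIMs, had 13.8, 15.6 and 12.8 CPM in the Sham mice, 75.4, 90.5 and 86.2 CPM in the SCI mice, and 66.5, 53.4 and 52.9 CPM in the SCI+FIPI mice. Syk (chr13:52583173-52648792, forward strand), the kinase that docks on the phosphorylated ITAM, had 11.3, 15.1 and 11.1 CPM, then 85.6, 102 and 114 CPM, then 74.3, 58.3 and 65.5 CPM in the same order of groups. Btk (chrX:134542336-134583570, reverse strand), a Tec family kinase, was the least abundant of the 3, with 2.87, 3.07 and 2.26 CPM in the Sham mice, 19.5, 18.8 and 24.2 CPM in the SCI mice, and 14.8, 12.9 and 14.3 CPM in the SCI+FIPI mice. For each kinase the groups were separate, with the SCI mice highest. The log2 fold changes after injury were 2.58 for Lyn (standard error 0.110), 3.00 for Syk (0.155) and 2.93 for Btk (0.142), with adjusted p-values of 7.42e-10, 8.20e-08 and 4.11e-10.

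Blnk and Vav1 followed the same order of groups. Blnk (chr19:40928927-40994535, reverse strand), the scaffold that joins Syk to Btk and phospholipase C gamma, had 7.19, 6.05 and 4.76 CPM in the Sham mice, 44.2, 39.7 and 51.3 CPM in the SCI mice, and 34.3, 25.5 and 28.6 CPM in the SCI+FIPI mice. Vav1 (chr17:57279100-57328031, forward strand), which activates Rac and so the actin skeleton, had 10.4, 9.93 and 7.10 CPM, then 49.5, 63.8 and 65.6 CPM, then 46.5, 36.5 and 42.8 CPM. The SCI+FIPI mice lay between the other groups without overlap for both genes, although for Vav1 the highest SCI+FIPI mouse (46.5 CPM) came close to the lowest SCI mouse (49.5 CPM). Their log2 fold changes after injury were 2.91 (standard error 0.160, adjusted p = 1.81e-08) and 2.71 (standard error 0.164, adjusted p = 1.59e-07).

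**Figure D1:**
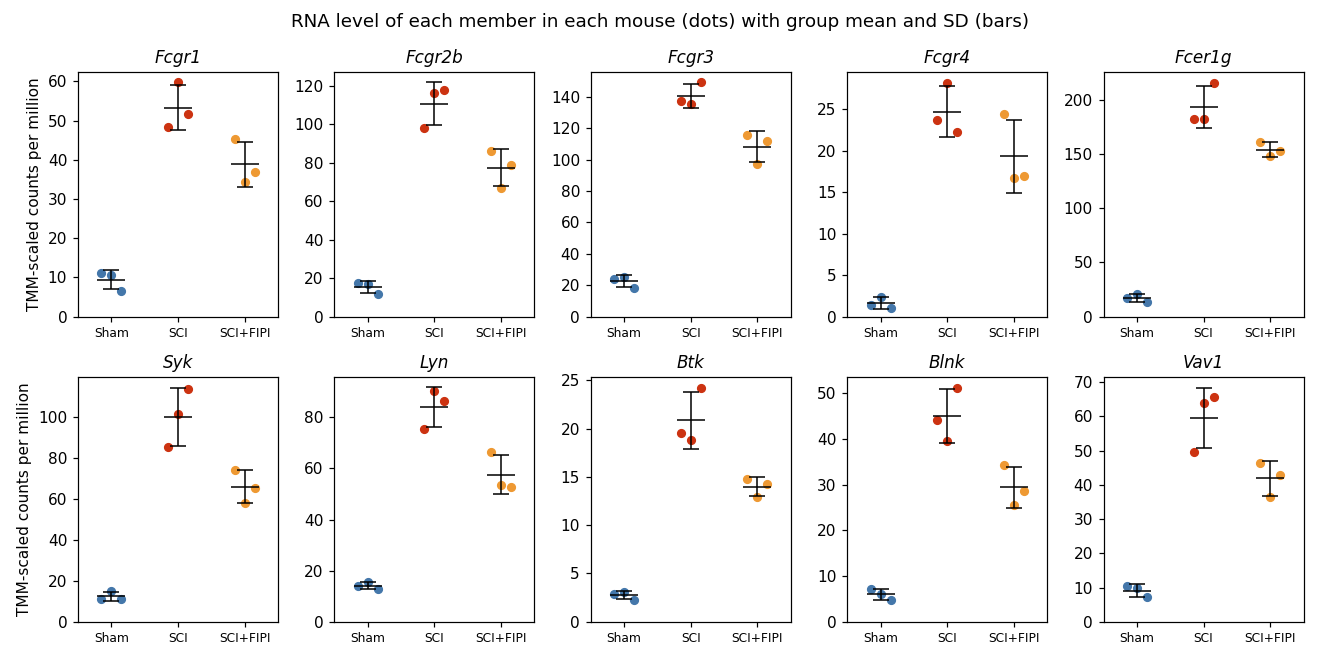
Level of each of the 10 members in TMM-scaled CPM (vertical axes, each from 0) by group, with 1 dot per mouse, the group mean as a horizontal bar and the SD as an error bar (n = 3 mice). All Sham mice lie far below all injured mice, and the SCI+FIPI mice lie below the SCI mice for every member except Fcgr4, where SCI+FIPI mouse 1 reaches 24.5 CPM.

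Set side by side, 10 of 10 members were called higher in SCI than in Sham mice, where 24.4% of all genes tested were called higher. Their log2 fold changes ran from 2.51 for Fcgr1 to 3.94 for Fcgr4 with a median of 2.89, against a median of -0.00 over all genes tested. In bulk tissue, more cells of a type and more RNA per cell cannot be told apart, nor can fewer cells and less RNA per cell. The smallest p that the exact permutation test allows with 3 mice against 3 is 0.1, and each of the 10 members gave it for this comparison.

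Per kilobase of exon, the members kept a similar order across the groups. The length counts all annotated exons of a gene. It is 9362 bases for Syk and 5790 for Fcgr2b, whose longest transcripts have 5363 and 3544 bases. The order between genes and the size of the ratios below depend on this choice of length. Fcer1g stood first and Fcgr3 second in each group, at 222 ± 22.1 and 81.1 ± 4.35 CPM per kb in the SCI mice (SD, n = 3). Lyn, Fcgr1, Fcgr4, Fcgr2b and Vav1 came next in the SCI mice, between 20.6 and 16.2 CPM per kb on average. Neighbours within that run overlapped between mice, so the order of neighbours is not resolved. Lyn and Fcgr1, with lowest mice at 18.5 and 18.7 CPM per kb, lay wholly above Vav1, with its highest mouse at 17.8. Syk followed at 10.7 ± 1.51, and Blnk at 7.52 ± 0.973 and Btk at 6.62 ± 0.936 CPM per kb overlapped at the bottom. Fcgr4 moved furthest in the order, from place 8 in the Sham mice to place 5 in the SCI mice and place 3 in the SCI+FIPI mice, although it overlapped its neighbours on both sides in the SCI mice. Lyn, Fcgr1, Fcgr2b, Vav1 and Syk also shifted, by at most 2 places between any groups.

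The balance of inhibitory to activating receptor RNA stayed close to its Sham value. Fcgr2b divided by the sum of Fcgr1, Fcgr3 and Fcgr4, per length, was 0.147 ± 0.0061 in the Sham mice, 0.157 ± 0.0107 in the SCI mice and 0.144 ± 0.00348 in the SCI+FIPI mice (SD, n = 3 mice each). Single mice ranged from 0.142 to 0.154, from 0.145 to 0.164 and from 0.141 to 0.147, so that SCI overlapped both other groups. Other ratios moved with injury. Fcer1g over the same activating sum was 1.00, 1.16 and 1.08 in the Sham mice, 1.79, 1.69 and 2.00 in the SCI mice, and 1.79, 2.06 and 1.90 in the SCI+FIPI mice. Both injured groups lay wholly above the Sham group and overlapped each other. Fcgr4 over Fcgr3 showed the same order, with means of 0.0965 ± 0.0305, 0.244 ± 0.0406 and 0.246 ± 0.0424.

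The 3 kinases and the adaptor were lower with FIPI, past both limits. Syk, Lyn, Btk and Blnk were called lower in SCI+FIPI than in SCI mice, 4 of the 10 members, where 0.695% of all genes tested were called lower. Their mean levels were 65.8%, 68.5%, 67.1% and 65.4% of those in the SCI mice. The log2 fold changes were -0.60 for Syk (standard error 0.136, adjusted p = 0.0258), -0.55 for Lyn (0.0988, adjusted p = 0.00765), -0.57 for Btk (0.120, adjusted p = 0.0112) and -0.61 for Blnk (0.138, adjusted p = 0.0206). Syk, Lyn and Btk are also among the genes the study itself displays for inflammatory pathways from these same mice, so that their direction here is not independent of that choice.

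None of the receptors was called in this comparison, and neither were Fcer1g and Vav1. Vav1 and Fcgr2b lay just outside the limit on the adjusted p, with log2 fold changes of -0.51 (adjusted p = 0.0558) and -0.52 (adjusted p = 0.0529). Fcgr3 met the limit on the adjusted p (0.0364) but not the one on the fold, at -0.38. Fcgr1 at -0.46 (adjusted p = 0.122), Fcgr4 at -0.36 (adjusted p = 0.313) and Fcer1g at -0.33 (adjusted p = 0.130) missed both limits. Whether the kinases and adaptor differ from the receptors in their response to FIPI was not tested. All 10 values were negative, with a median of -0.51. Every SCI+FIPI mouse lay below every SCI mouse for 9 of the 10 members, the exception being Fcgr4, where 14.5% of all genes tested showed that separation.

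**Figure D2:**
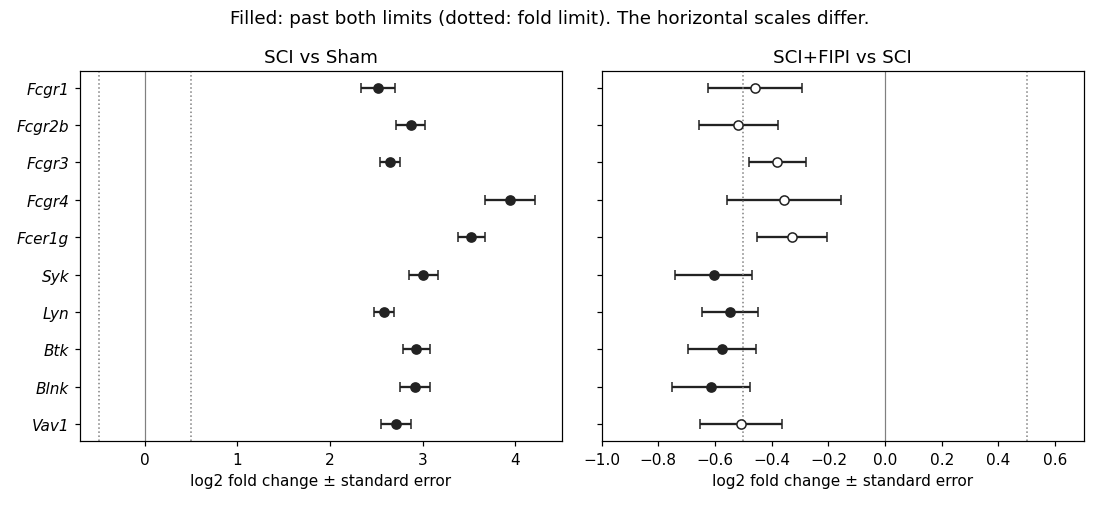
Log2 fold change of each member with its standard error (horizontal axes, of different length in the panels) for SCI against Sham on the left and SCI+FIPI against SCI on the right. Filled points passed both limits and dotted lines mark the fold limit of 0.5, with 10 filled points on the left and 4, Syk, Lyn, Btk and Blnk, on the right.

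Single mice decided how many members were called with FIPI. Without SCI+FIPI mouse 2, edgeR called 0 of the 10, with 7 at an unadjusted p under 0.05, and 0.121% of all genes were called lower. Without SCI+FIPI mouse 3 it called 1 (Btk), without SCI mouse 3 it called 1 (Lyn), and without SCI mouse 2 it called 2 (Blnk and Btk), while the shares of all genes called lower were 0.335%, 0.293% and 0.283%. Leaving out SCI mouse 1 raised the count to 6 by adding Fcgr2b and Vav1, and leaving out Sham mouse 3 gave the same 6, with 1.35% and 0.781% of all genes called lower. DESeq2, limma-voom, edgeR fitted to only the 6 mice compared and a fit without the filter on low counts each called those 6 as well, with shares of all genes between 0.722% and 0.973%. Every member stayed negative under every alternative.

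Some of these mice stood at an edge of their group across the members and others in its middle. In SCI+FIPI mouse 2, 0 of the 10 members were above their group's mean on the log2 scale, against 10 in SCI+FIPI mouse 1 and 4 in SCI+FIPI mouse 3. SCI mouse 1 also had 0 above, and SCI mice 2 and 3 had 6 and 8. The 14 pan-myeloid markers were also low in SCI+FIPI mouse 2 and in SCI mouse 1, with 0 above the group mean in each. In the other mice they matched the members less closely. The markers above the mean were 10 in each of SCI+FIPI mice 1 and 3, and 5 and 13 in SCI mice 2 and 3. Their part in the members' differences was not tested.

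After FIPI all members remained far above the Sham level. All 10 were called higher in SCI+FIPI than in Sham mice, where 21.2% of genes tested were called higher, with log2 fold changes from 2.03 for Lyn to 3.59 for Fcgr4 and adjusted p-values of at most 1.03e-05. This comparison shares its SCI+FIPI mice with the one above. Fcgr4 stood at 12.1 times and Lyn at 4.10 times the Sham mean.

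Measured against 14 pan-myeloid markers, the injury rise of the members was similar in the median, which did not hold with the other references below. These 14 genes all rose after injury, by a median of 3.03 on the log2 scale. For FIPI their median was -0.39, and 1 of them, Spi1 (-0.52, adjusted p = 0.0251), was called lower. Each member's log2 CPM was therefore also taken minus the mean log2 CPM of the markers in the same mouse. On that scale the SCI minus Sham difference had a median of -0.04 over the members. Fcgr4 (1.02) and Fcer1g (0.61) were higher relative to the markers in every SCI mouse than in any Sham mouse, whereas Fcgr1 (-0.40), Lyn (-0.35) and Fcgr3 (-0.27) were lower in every SCI mouse. The other 5 overlapped.

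On the same scale the difference of SCI+FIPI minus SCI ran from -0.25 for Blnk to 0.04 for Fcer1g, with a median of -0.14. For Syk (-0.23), Btk (-0.20) and Fcgr2b (-0.15), every SCI+FIPI mouse lay below every SCI mouse, and the other 7 members overlapped. The share of all genes that separate on this scale was not taken, for injury or for FIPI. These counts of separate members therefore have no background to be read against. Relative to markers of microglia in place of pan-myeloid markers, the median was -0.40 for FIPI and 1.95 for injury, and relative to Csf1r, Aif1 and Itgam it was 0.90 for injury. The position of the members relative to myeloid cells after injury therefore depends on the markers used, and no p is given for these values.

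**Figure D3:**
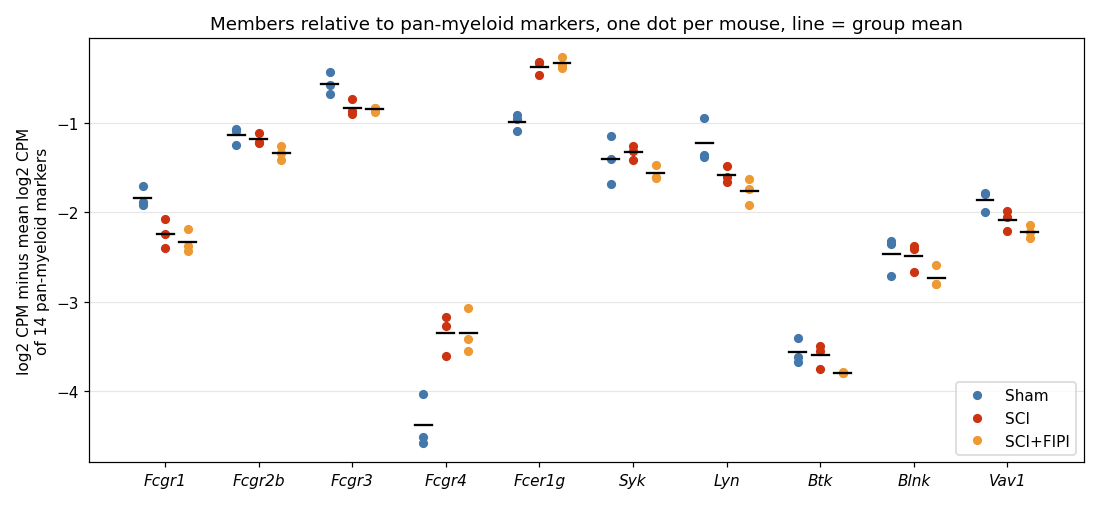
Log2 CPM of each member minus the mean log2 CPM of 14 pan-myeloid markers in the same mouse (vertical axis), with 1 dot per mouse and a line at each group mean. Fcgr4 and Fcer1g lie higher in the injured mice than in the Sham mice, by 1.02 and 0.61 for SCI, while Fcgr1, Lyn and Fcgr3 lie lower.

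Markers of particular myeloid cells moved unequally. Of 10 microglia markers 6 rose and 1 fell after injury, with summed levels of 347 to 432 CPM in Sham and 1025 to 1186 CPM in SCI mice, and 0 were called with FIPI (882 to 954 CPM). Of 10 markers of recruited monocytes and macrophages 9 rose, from 143 to 246 CPM in Sham to between 4410 and 5402 CPM in SCI mice, and 1 was called lower with FIPI (3203 to 4244 CPM). That sum is carried mainly by Lyz2, with means of 130 CPM in Sham and 4529 CPM in SCI mice, and the list's median log2 fold change after injury was 2.20. Neutrophil markers, which belong to another cell with Fc gamma receptors, were low, with 1 of 10 called after injury and summed levels of 32.0 to 91.2, 55.3 to 66.9 and 27.9 to 125 CPM. The part of any of these cells in the members' levels was not tested.

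Btk and Blnk are known best from B cells, and the B cell markers Ms4a1, Pax5 and Cd79a were low in every mouse. Ms4a1 was at most 1.04 CPM, Pax5 at most 2.59 CPM and Cd79a at most 3.02 CPM, and for each of these the highest mouse was Sham mouse 2. In the SCI mice, Cd79a lay between 0.844 and 1.47 CPM where Blnk lay between 39.7 and 51.3 CPM. In the Sham mice, Cd79a lay between 1.38 and 3.02 CPM and Btk between 2.26 and 3.07 CPM, so they stood at similar levels there. Of the 12 B and plasma cell markers tested, 5 fell and 2 rose after injury, with 0 called for FIPI. Those that rose were Cd22, from between 1.045 and 3.35 CPM in Sham to between 27.0 and 34.8 CPM in SCI mice, and Xbp1. Microglia also express Cd22, and Xbp1 is a general factor of the secretory pathway. The summed level of the marker list was carried mainly by Xbp1. The sum lay between 73.2 and 100.3 CPM in Sham, 158 and 177 CPM in SCI and 124 and 137 CPM in SCI+FIPI mice. The part of B cells in the levels of Btk and Blnk was not tested. Of T and NK cell markers 5 of 12 were tested, with 1 called after injury and a sum of at most 9.18 CPM in any mouse. Of 8 mast cell markers, 2 were tested and 1, Kit, fell after injury.

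**Figure D4:**
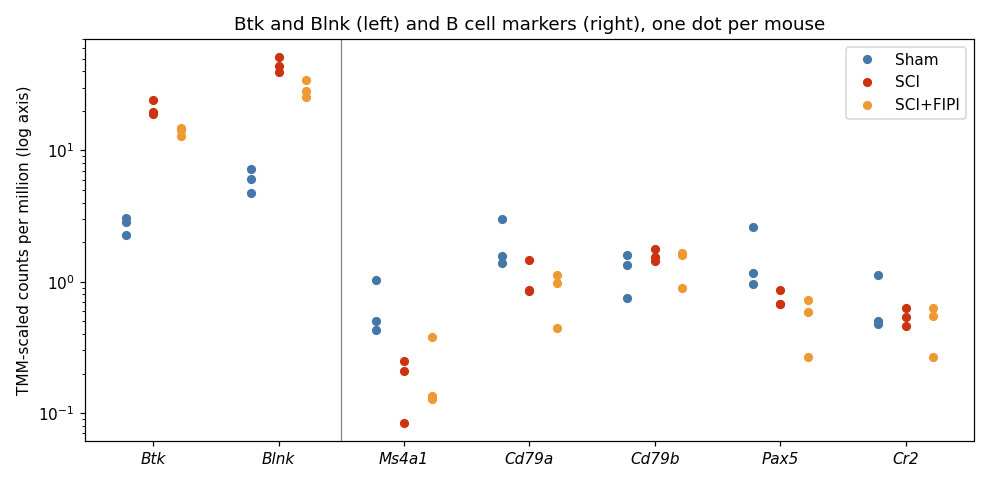
Levels of Btk and Blnk, left of the line, and of 5 B cell markers, right of it, in TMM-scaled CPM on a log axis, with 1 dot per mouse. Btk and Blnk are higher in all injured mice than in the Sham mice. None of the 5 markers shown exceeds 3.02 CPM in any mouse, and in the SCI mice they stay under 2 CPM. Other markers of the list, Cd22 and Xbp1, rose after injury and are not shown.

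The ligand side was measured only as antibody RNA, which is transcribed by cells in the tissue and does not report the IgG that arrives with blood. Ighm, the heavy chain of IgM, was the most abundant such RNA. It had 69.0, 59.7 and 57.9 CPM in the Sham mice, 19.2, 16.7 and 21.1 CPM in the SCI mice, and 27.8, 41.5 and 43.3 CPM in the SCI+FIPI mice. The groups did not overlap. The light chain Igkc was at most 5.91 CPM and Jchain at most 2.76 CPM in any mouse. Ighm fell by 1.71 on the log2 scale after injury (standard error 0.167, adjusted p = 1.23e-05) and was 0.99 higher with FIPI than without (standard error 0.168, adjusted p = 0.0108). The IgG heavy chains, the ones these receptors bind, were barely detected, with at most 3 counts in any mouse for Ighg1, 13 for Ighg2c, 26 for Ighg3 and 32 for Ighg2b. Of 7 immunoglobulin genes tested, 4 fell after injury, and Ighm was the 1 that rose with FIPI.

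Around the 10 members, a list of 116 further tested genes of the same signaling route behaved less uniformly. After injury 75 rose and 5 fell, with a median log2 fold change of 1.21. Tyrobp of that list is also a pan-myeloid marker, and Cd79a, Cd79b, Cd22 and Fcer2a are also B cell markers. With FIPI 8 were called lower and 0 higher at both limits by edgeR, 103 of the 116 values were negative, and the median was -0.24.

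Other receptors that signal through ITAMs included the largest rises. Of 17 tested, 13 rose after injury and 1 fell. Among those that rose were the C-type lectins Clec4d, from 0.713 ± 0.760 CPM in Sham to 24.3 ± 6.12 CPM in SCI mice (log2 fold change 5.04), Clec4n (4.62) and Clec4e (4.49). Clec4n and Clec4e recognise sugars and glycolipids of microbes and damaged cells and signal through the Fcer1g chain. The one that fell was Cd79a of the B cell receptor (-0.91, adjusted p = 0.0466). With FIPI, Clec4n (-0.65, adjusted p = 0.0248) and Cd300lb (-0.72, adjusted p = 0.00606) were called lower. Of 10 other Fc receptors 6 were tested, and Fcrls (2.94), Fcrl1 (3.03) and Fcgrt (1.42) were among the 4 that rose after injury. Fcgrt encodes the neonatal receptor that recycles IgG. Fcer2a, the low-affinity IgE receptor, fell by 1.86 from a level under 1.1 CPM, and 0 of the 6 were called with FIPI by edgeR.

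Of 6 other Src family kinases 2 rose after injury and 1 was called lower with FIPI. Fgr, a Src family kinase of myeloid cells, rose from 3.05 ± 1.17 to 18.8 ± 2.00 CPM (2.63, adjusted p = 1.62e-07). Of 17 other adaptors and Tec family kinases 9 rose, among them Lcp2, the counterpart of Blnk in T and myeloid cells (2.63), Sh3bp2 (2.52) and Lat2 (2.56), and 0 were called with FIPI. Lat2 shares 54.3% of its 50-base stretches with Rfc2, so its value is uncertain.

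The branches that lie after Syk and Btk rose in part. Of 16 lipid enzymes and calcium genes 8 rose after injury, including the phosphoinositide 3-kinase subunits Pik3r5 (2.95) and Pik3cg (2.21) and the phospholipase Plcg2 (2.16), the direct target of Btk. Pik3r5 was called lower with FIPI (-0.61, adjusted p = 0.0404). Of 20 actin and exchange factor genes 14 rose and 2 fell: Rac2, the Rac form of blood cells, rose by 3.20, Myo1f by 2.99 and Nckap1l, a subunit of the WAVE complex, by 2.83, while Elmo1 fell by 0.54 and Limk1 fell by 1.01. Nckap1l (-0.51, adjusted p = 0.0309) and Myo1f (-0.54, adjusted p = 0.0144) were called lower with FIPI. In the branch of protein kinase C and the CARD adaptors, 5 of 9 rose, among them Card9 (1.86), which carries Syk signals to NF-kappaB, and Prkcd (1.76), and Prkcb fell by 0.89. With FIPI 2 of the 9 were called lower, among them Card9 (-0.53, adjusted p = 0.0141).

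Inhibitors of the route rose with it. Of 25 inhibitory receptors, phosphatases and ligases, 20 rose after injury and 0 fell, led by the inhibitory receptors Cd300a, from 2.64 ± 0.450 to 60.9 ± 10.4 CPM (4.53), Cd300lf (4.26) and Lilrb4a (3.77). The value of Lilrb4a is uncertain, since 43.5% of its stretches occur in other genes. None of the 25 was called with FIPI by edgeR, although all 25 log2 fold changes were negative, with a median of -0.32.

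Fcgr2b, Fcgr4, Fcgr3 and Fcer1g lie together on chromosome 1, between bases 170958617 and 171234365. Of the 6 other genes tested in that interval, 1 was called higher and 2 lower after injury, with log2 fold changes from -1.35 to 0.57. The remaining members lie on other chromosomes.

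Promoter letters are given because the members moved together. RefSeq promoters on GRCm38.p6, 250 bases before to 50 after a start, were matched for 9 of the 10 members. The letters GAGGAA, the core of the purine-rich box that the myeloid factor PU.1 (Spi1) binds, were searched on both strands. They occurred for Fcgr1, Fcgr3, Fcgr4, Btk, Vav1 and the second of the Syk starts, and not for Fcgr2b, Fcer1g or Blnk, where 28.3% of 32851 promoters hold them. The longer form AGAGGAAGT, which contains the first, occurred for Fcgr4 and Vav1, against 1.0% of promoters. Those promoters are shown with Fcgr3 and Btk, from 130 bases before to 30 after the start, with the core in capitals on whichever strand it was found. A match is a description of the letters and not of a bound site.
Fcgr4, chr1:171018796-171018955, forward strand: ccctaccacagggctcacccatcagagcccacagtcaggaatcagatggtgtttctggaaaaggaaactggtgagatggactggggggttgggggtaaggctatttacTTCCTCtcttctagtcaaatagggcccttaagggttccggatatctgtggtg
Vav1, chr17:57278970-57279129, forward strand: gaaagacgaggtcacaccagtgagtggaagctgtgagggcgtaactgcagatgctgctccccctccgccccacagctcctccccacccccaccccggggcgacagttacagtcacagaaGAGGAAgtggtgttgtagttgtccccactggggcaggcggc
Fcgr3, chr1:171059374-171059533, reverse strand: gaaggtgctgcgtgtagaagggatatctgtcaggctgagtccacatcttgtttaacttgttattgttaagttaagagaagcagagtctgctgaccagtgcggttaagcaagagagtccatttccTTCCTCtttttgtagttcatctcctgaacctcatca
Btk, chrX:134583111-134583270, reverse strand: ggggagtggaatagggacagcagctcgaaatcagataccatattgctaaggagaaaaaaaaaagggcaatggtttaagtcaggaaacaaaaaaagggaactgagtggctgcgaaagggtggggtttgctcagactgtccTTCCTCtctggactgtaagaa

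The genes most like the members in their pattern over the 9 mice were Frrs1, Nckap1l, Lacc1, Gsto1, Apobec1, Plcg2, Lcp1 and Cd53. They had the highest Pearson correlations, between 0.99888 and 0.99948, with the mean of the members' standardised log2 CPM, among genes whose mean log2 CPM reached 1. These values mainly follow the step from Sham to injury that all 9 mice share. After the group means were subtracted, the correlations of the same 8 genes lay between 0.933 and 0.980. The 8 genes were picked by their correlation over the same mice, so these values are no separate check. Their log2 fold changes after injury ran from 1.21 for Gsto1 to 3.54 for Apobec1.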

How the data were processed

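Poly(A) RNA of each mouse was sequenced, and per the labels the authors deposited raw read counts per gene, whole numbers without normalization. The aligner, the counting program and whether counting used strand are not given in the sources used here. The submitters' processing notes list GRCm38 and R 4.2.3. Identifiers were matched to GENCODE M21 (52403 of 52550).

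The analysis ran in R 4.3.3 (edgeR 4.0.16, limma 3.58.1, DESeq2 1.42.0) and Python 3.11.15. TMM factors, filterByExpr by group (18699 genes) and a robust quasi-likelihood fit of all 9 mice were used, with Benjamini-Hochberg adjustment over all genes tested. The common dispersion corresponds to a coefficient of variation of 9.3%. CPM per kb divides by exonic length. Standard errors are on the log2 scale. Mice of 1 group differed by more than sampling noise (chi-square per gene from 6.76 to 13.2), and replicates are separate mice. The number of counts limits precision for rare genes. The edgeR fit was also run on simulated counts in which each gene varied independently of the others. The outcome is not given here, and a shift shared by many genes of a mouse was not simulated.

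The members and lists were chosen with earlier results of these data known. Named genes were all members, the up to 3 largest changes past both limits in each list among genes whose mean log2 CPM reached 1, any opposite change, and the 8 most similar genes. Single marker and IgG genes were named after their values were seen. Alternatives were other factors, filters, blocks, offsets, models, limits and marker references, and each mouse left out. Some genes covered by the naming rule are not reported here.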

Additional observations from a re-analysis of the deposited data

How the results depend on the processing

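All 10 members were called higher in SCI and in SCI+FIPI than in Sham under each of the alternatives run. The count called lower with FIPI, 4, lay between 0 and 6 as each of the 9 mice was left out in turn. It was 1 at an adjusted p under 0.01, a limit at which the share of all genes is not given here. Of the 190 refitted FIPI values of single members, 162 kept their side of the limits, 14 gained and 14 lost the call, and none changed sign. The cause was not tested. With the replicate number as a block the count was 3 (Blnk, Btk and Lyn), also with offsets for GC content and length. The shares of all genes called were 0.674% with the block and 0.743% with the block and offsets. The numbers name different animals. Deviations of same-numbered mice correlated from -0.0726 to 0.108, and those of other pairs from -0.108 to 0.0889. Whether mice of the same number share a weak effect was not tested. The median of the members relative to the marker reference was -0.40 for FIPI with microglia markers, and for injury 0.90 with Csf1r, Aif1 and Itgam and 1.95 with microglia markers. With 24 to 55 counts in Sham mice, Fcgr4 is the member that depth limits most.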
